A study of Homo sapiens with 12 samples.

Results

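The data described are the deposited RNA-seq gene counts of 6 xenograft tumour libraries of Cal33, an established squamous carcinoma line of the tongue, out of 12 libraries in the whole series. Tumours labelled pTEADi were given doxycycline (DOX+), which switches on a peptide inhibitor of the TEAD transcription factors, and tumours labelled Control were without it (DOX-), with 3 libraries in each group. Every library of both groups came from the same line grown in a host animal, and the members are all genes measured well enough to test, 14705 of 60649 gene identifiers. The other 6 libraries are Cal33 tumours given the small molecule SW-682 or its Vehicle, and they enter only where the text names SW-682. The labels do not say whether Control tumours carried the same inducible construct, and no group received doxycycline alone, so an effect of doxycycline and an effect of the inhibitor cannot be told apart. Nothing in them states that each library is a different animal. The p-values therefore reflect the spread among these libraries, and that spread may be technical.

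TEAD proteins bind DNA but need a partner to activate transcription, and their best known partners are YAP and TAZ, which the Hippo kinases hold back in the cytoplasm. In squamous epithelium YAP and TAZ are active in basal cells, where they favour growth, adhesion to matrix and cytoskeletal tension. Cells that leave the basal layer stop dividing and turn on a sequence of suprabasal keratins, cornified envelope proteins, proteases with their inhibitors, and lipid-processing enzymes.

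Each library held between 13668448 and 14604949 expected counts, with 14536 to 14720 genes at 10 counts or more and 3.64% to 4.90% of counts from mitochondrial genes. Within a group, Pearson's r of log2 CPM across genes lay between 0.976 and 0.985. The first principal component held 56.1% of the variance and separated the groups. The second held 15.0% and separated Control 2, at -28.8, from Control 3, at 30.1, with the pTEADi libraries between them. All 10 markers of squamous carcinoma cells were present, among them DSG3, SFN and KRT14, the last with 23313, 18786 and 20605 CPM in the Controls and 27259, 22936 and 23972 CPM with pTEADi. Levels are CPM, the share of a library's counts scaled to 1e6, on library sizes scaled by the trimmed mean of M-values (TMM), always in the order of libraries 1 to 3. The summed levels of gene lists are the exception. They are plain CPM on unscaled library sizes, over all list members whether tested or not. A fold change is log2 of pTEADi over Control ± its standard error, and "rose" or "fell" means an adjusted p under 0.05 in edgeR's quasi-likelihood test with Benjamini-Hochberg adjustment over all 14705 genes. By this definition 3 of the 10 squamous carcinoma markers fell (30%), KRT17 among them, and 1 rose (10%), DSG3.

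Of these genes 3864 changed (26.3%), with 1866 rising (12.7%) and 1998 falling (13.6%), and the median log2 fold change of all genes was -0.00067. These shares are the background for each gene list that follows, and some genes are in more than 1 list. Whether the shares of a list differ from the background was not tested. Among the genes that changed, 464 rose and 422 fell by 2-fold or more, 95 rose and 67 fell by 4-fold or more, and 2 rose and 5 fell by 16-fold or more. At an unadjusted p under 0.05 the count was 5614 (38.2%). In 6175 genes (42.0%) the 3 libraries of one group did not overlap with those of the other. At the other end, 5678 genes (38.6%) had a 95% interval that lay within 0.5 of 0 on the log2 scale. The standard error depended on level, with a median of 0.49 for genes under 1 CPM and 0.093 for genes at 100 CPM or more. The count of changed genes rested most on pTEADi 2 and Control 1: it was 2325 without the first and 2573 without the second, and all 3864 genes kept their sign in both fits.

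**Figure D1:**
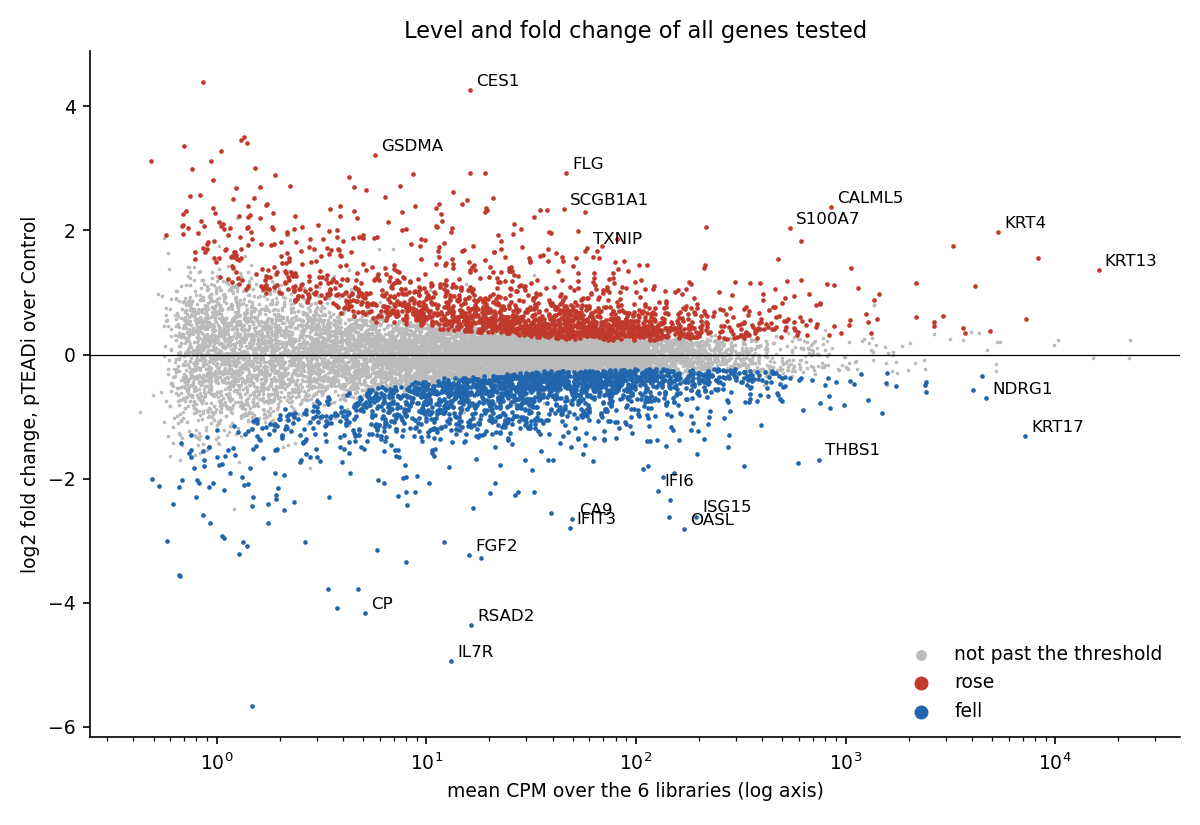
Each point is 1 of the 14705 genes tested, with its mean CPM over the 6 libraries on a log axis and its log2 fold change, pTEADi over Control. Red genes rose (1866), blue genes fell (1998), and the abundant keratin genes KRT13 and KRT4 lie far right among the rises while KRT17 lies far right among the falls.

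On TMM-scaled CPM the rises summed to more than the falls, and the scaling adds to that gap. The TMM factors on library size were 1.02, 1.03 and 1.02 in the Controls and 0.968, 0.972 and 0.992 with pTEADi. Scaled CPM over all genes therefore sum to more in each pTEADi library, and the gap is not a measured surplus of RNA. Summed over the genes that rose, the gain was 104769 CPM, of which 10 genes gave 41.4%, and the loss summed over the genes that fell was 66744 CPM, of which 10 genes gave 23.8%. The 10 largest gains included 4 keratins of differentiated epithelium, KRT13, KRT1, KRT4 and KRT10. They also included S100A8 and S100A9, the subunits of calprotectin, the small heat shock protein gene HSPB1, CALML5, and the mitochondrial genes MT-CO3 and MT-CYB. The 10 largest losses were led by KRT17, a keratin of activated keratinocytes, and included the glycolytic enzymes GAPDH, ENO1 and ALDOA, the stress response gene NDRG1, the amino acid transporter SLC7A5, the matrix protein THBS1 and beta-actin, ACTB. ACTB is often used as a reference gene, and its fall (-0.34 ± 0.12) had an adjusted p of 0.0499, at the threshold.

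Of the genes for the TEAD factors, TEAD4 and TEAD2 fell. TEAD1 did not pass, at 35.8, 36 and 33.2 CPM in the Controls and 33.8, 37.5 and 37.9 CPM with pTEADi. TEAD4 fell from 18.2, 19.5 and 12.9 to 10.2, 10.9 and 9.81 CPM (-0.71 ± 0.16, adjusted p = 0.00811), and TEAD2 fell by less (-0.36 ± 0.11). TEAD3, the TEAD gene with the most counts, was at 52.7, 57.2 and 55.2 and 62.1, 69.1 and 64.8 CPM (0.25 ± 0.09, adjusted p = 0.0524), just outside the threshold. Of the coactivators, TAZ, encoded by WWTR1, fell from 62, 72.8 and 62.3 CPM to 41.7, 42.8 and 48 CPM (-0.57 ± 0.10, adjusted p = 0.00153), with no overlap between the groups. YAP1 was at 118, 124 and 132 CPM and 101, 127 and 127 CPM, overlapping ranges, and did not pass (-0.07 ± 0.10). Of 8 tested genes of this list 3 fell and 0 rose. Of 22 tested upstream Hippo genes 4 fell (18.2%), near the 13.6% of all genes, and 0 rose. The 4 were the tumour suppressor kinase partner SAV1 (-0.64 ± 0.12), the kinase MAP4K4 (-0.53 ± 0.10) and the giant cadherins FAT1 (-0.54 ± 0.11) and FAT4 (-1.11 ± 0.37).

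Of 21 tested YAP/TAZ target genes 13 fell (61.9%) and 0 rose, with a median of -0.54. NT5E, the ectonucleotidase CD73, fell from 30.4, 50.6 and 18 CPM to 9.08, 5.17 and 6.91 CPM (-2.23 ± 0.32, adjusted p = 0.000531). CCN1, a matricellular protein and a classical target, fell from 62.9, 80.9 and 46.7 to 30.7, 17.2 and 23.3 CPM (-1.42 ± 0.21, adjusted p = 0.000624). F3, tissue factor, which starts blood clotting, fell from 285, 417 and 212 to 109, 114 and 131 CPM (-1.37 ± 0.19, adjusted p = 0.000426). All 3 pTEADi libraries lay below all 3 Controls for each of these genes. AMOTL2, an adaptor that binds YAP, fell by less (-0.50 ± 0.10), and AJUBA, which restrains the Hippo kinases, had -0.24 ± 0.08 and an adjusted p of 0.0501, just outside the threshold. The count of falling targets was 7 without pTEADi 3 and 8 without pTEADi 1.

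CCN2, the best known target of TEAD, was close to the limit of detection in these tumours, at 0.762, 2.21 and 0.909 CPM in the Controls and 0.45, 0.144 and 0.345 CPM with pTEADi. Its fall (-2.02 ± 0.59, adjusted p = 0.0259) therefore rests on few counts. Its promoter shows what a TEAD recognition sequence looks like, with GGAATG, searched on both strands, occurring 3 times in the window below. The sequence is from RefSeq on GRCh38.p14 (chr6:131951442-131951561, minus strand), 5′ to 3′ on the gene's strand, and capitals mark GGAATG.
CCN2: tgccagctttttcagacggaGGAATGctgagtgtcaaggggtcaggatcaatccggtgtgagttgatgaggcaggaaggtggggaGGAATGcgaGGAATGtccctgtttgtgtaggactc
These letters occur in the 250 bases before the start to 50 after it in 14% of all 27305 promoters in the table, in 11% of the 10864 matched genes tested, in 11.1% of the 1404 matched genes that rose and in 10.6% of the 1565 matched genes that fell. Among the YAP/TAZ targets 7 of 16 promoters held them (43.8%). So did 11 of 27 promoters (40.7%) of the cornified envelope and keratohyalin genes described below, most of which rose, so the letters are not particular to the targets. Of the tested targets with a match 3 of 6 fell, and of those without one 6 of 9 fell.

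Some growth factor signalling genes changed strongly. FGF2, a growth factor for mesenchymal and squamous cells, fell from 22.7, 44.1 and 19.7 CPM to 3.3, 1.8 and 4.08 CPM (-3.23 ± 0.34, adjusted p = 7.44e-05), with all 3 pTEADi libraries far below the lowest Control. NRG1, a ligand of ERBB3 and ERBB4, fell from 51.6, 62.6 and 43 to 19.4, 14.6 and 19.3 CPM (-1.56 ± 0.15, adjusted p = 5.27e-05). Of the receptors, ERBB2 rose from 179, 175 and 215 to 313, 347 and 289 CPM (0.74 ± 0.11, adjusted p = 0.000479). ERBB3 (0.58 ± 0.08) and FGFR3 (0.76 ± 0.12) rose too, while EGFR did not pass (-0.23 ± 0.10, adjusted p = 0.112). The EGFR ligand AREG fell (-0.76 ± 0.21) and its relative EREG rose (0.60 ± 0.20). Of the 12 tested EGFR family genes 3 rose (25%) and 2 fell (16.7%). Of 9 tested FGF genes 1 rose (11.1%) and 3 fell (33.3%). These counts are small, and whether they differ from the 12.7% and 13.6% of all genes was not tested. The falls were 1 in the EGFR family without any 1 of the pTEADi libraries, and 1 in the FGF list without pTEADi 1.

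Of 24 genes of MAPK feedback, AP-1 and the immediate early response 13 fell and 0 rose, with a median of -0.55. FOSL1, an AP-1 subunit, fell from 27.9, 57.9 and 17.1 CPM to 7.13, 8.19 and 9.19 CPM (-2.07 ± 0.35, adjusted p = 0.00133), and its Control values differed more than 3-fold, with Control 2 highest. IER3, an early response gene, fell from 87.6, 127 and 71.6 to 33.2, 26.3 and 27.4 CPM (-1.72 ± 0.18, adjusted p = 8.35e-05). The stress factor ATF3 (-1.41 ± 0.27), the phosphatase DUSP7 (-0.57 ± 0.11) and PHLDA1 (-1.08 ± 0.21) also fell.

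The tumours gained RNA of the suprabasal squamous programme. Of 27 squamous transcription factors 13 rose and 1 fell, with a median of 0.44. GRHL3, a factor needed to form the skin barrier, rose from 45.7, 46.2 and 55.7 CPM to 86.5, 118 and 93.1 CPM (1.01 ± 0.13, adjusted p = 0.000208), with no overlap. ELF5, an epithelial ETS factor, rose from 0.832, 1.79 and 1.61 to 5.48, 11.9 and 9.26 CPM (2.65 ± 0.34, adjusted p = 0.000254), and HOPX, a homeodomain cofactor of late differentiation, from 13.9, 19.4 and 20.5 to 49.7, 57.8 and 66.6 CPM (1.70 ± 0.15, adjusted p = 3.45e-05). ZNF750 (0.63 ± 0.12), CEBPA (0.85 ± 0.12), BARX2 (0.66 ± 0.10) and SOX2 (0.83 ± 0.16) rose by less, and IRX4 was the 1 that fell (-0.46 ± 0.10). The lineage factor TP63 stayed within its Control range, at 262, 228 and 307 CPM and 257, 239.6 and 260.4 CPM (-0.07 ± 0.11). KLF4, a factor of differentiating keratinocytes, did not pass, at 122, 174 and 93.6 CPM and 98.3, 115 and 97.6 CPM (-0.33 ± 0.18), and OVOL1 (0.02 ± 0.22) and PRDM1 (-0.29 ± 0.40) did not pass either. Of 15 tested Notch pathway genes 3 rose (20%) and 3 fell (20%), against 12.7% and 13.6% of all genes. The rises were NOTCH2 (0.42 ± 0.09), HES2 (0.76 ± 0.13) and NRARP (0.43 ± 0.09), and the falls LFNG (-0.55 ± 0.08), DLL1 (-0.46 ± 0.09) and HES4 (-0.28 ± 0.09).

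Of 13 tested keratins of differentiated epithelium 12 rose and 0 fell, with a median of 1.76, and their summed level was 17480.2 ± 5672 CPM in Control and 48439.6 ± 6112 CPM with pTEADi (SD, n = 3 each). KRT13, a keratin of the suprabasal layers of oral mucosa, rose from 8416, 6445 and 12268 CPM to 21299, 26673 and 21533 CPM (1.36 ± 0.21, adjusted p = 0.000678). Its partner KRT4 rose from 1449, 1961 and 3106 to 6870.2, 10224 and 8528 CPM (1.98 ± 0.24, adjusted p = 0.00019). The epidermal pair rose as well, KRT1 from 4726, 2431 and 5448 to 12020.0, 13733 and 11238 CPM (1.55 ± 0.24) and KRT10 from 1677, 844 and 1988 to 4889, 5793 and 4398 CPM (1.74 ± 0.25). For KRT13, KRT1, KRT4 and KRT10 the lowest pTEADi library lay above the highest Control, which was Control 3 each time. KRT79, a keratin of differentiated hair follicle and gland duct cells, had the smallest p of the list, at 36.7, 37.1 and 31.2 CPM and 113, 146 and 122 CPM (1.86 ± 0.11, adjusted p = 3.47e-06).

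Of 13 tested basal, stress and simple keratins 0 rose and 5 fell. KRT17 fell from 10925, 11651 and 8207 CPM to 5043, 3511 and 3864 CPM (-1.31 ± 0.17, adjusted p = 0.000248). KRT75, a keratin of hair follicle companion cells, fell from 194, 170.1 and 168 to 52.9, 43.7 and 57 CPM (-1.79 ± 0.11, adjusted p = 3.47e-06). The simple epithelial pair fell too, KRT8 (-1.36 ± 0.13) and KRT18 (-0.86 ± 0.18), and so did KRT6C (-0.86 ± 0.21). The basal pair did not pass, KRT5 with -0.06 ± 0.14 and KRT14 with 0.24 ± 0.13. KRT6A (-0.05 ± 0.15), KRT6B (-0.26 ± 0.13) and KRT16 (0.16 ± 0.13), each with more counts than KRT6C, did not pass either. Because these genes differ in length, their order was read on CPM per kilobase of annotated exon: KRT14 was highest in both groups (9269 in Control and 10963 with pTEADi). On this scale KRT13 went from the 6th place (3104) to the 2nd (7953) and KRT17 from the 5th (3425) to the 10th (1382).

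**Figure D2:**
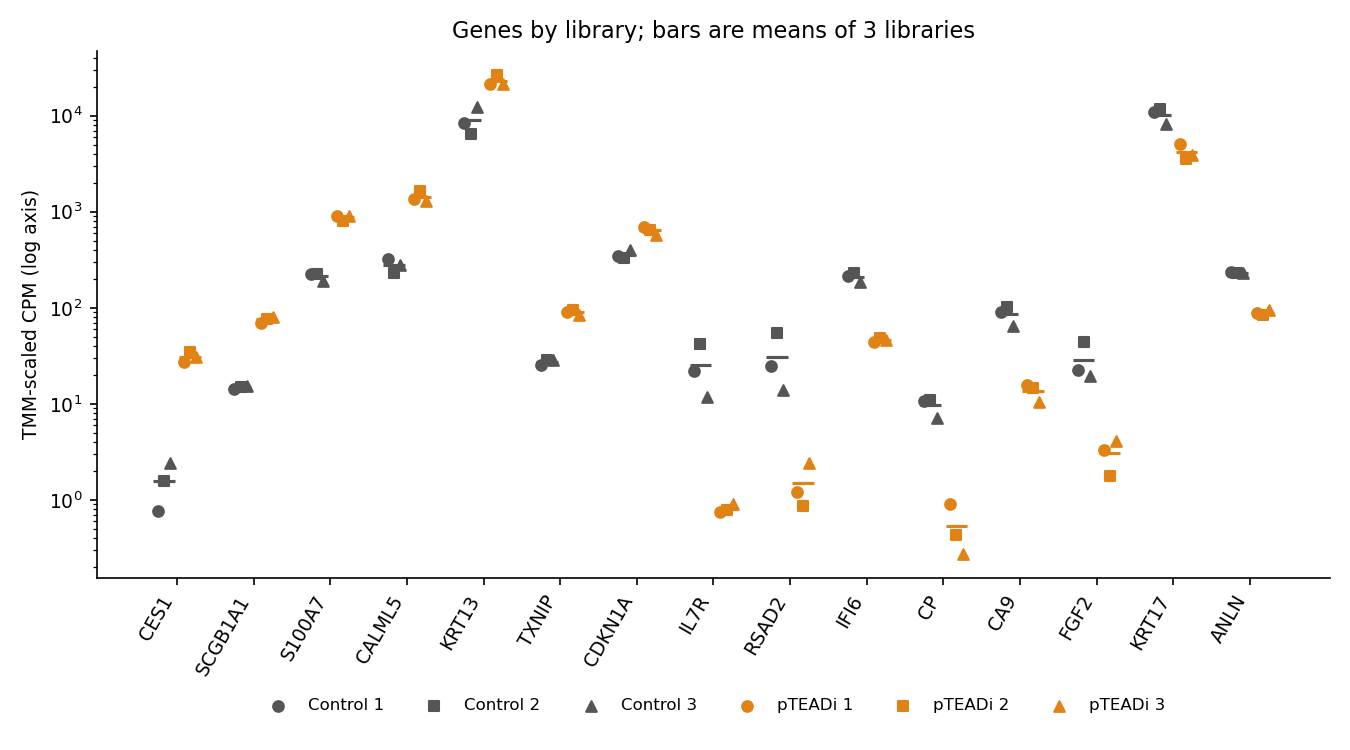
TMM-scaled CPM on a log axis of 15 genes in each library, with circles, squares and triangles for libraries 1, 2 and 3, grey for Control and orange for pTEADi, and bars at the group means. The 15 genes were picked from those that changed, and for the largest changes no overlap between groups was part of the rule. That none of the 15 overlaps is therefore no separate result, and 42.0% of all genes tested did not overlap either. IL7R and RSAD2 show the spread among Controls, with Control 2 highest.

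Cornified envelope and keratohyalin genes code for the proteins that are cross-linked under the membrane of dying surface cells. Of 26 tested 18 rose and 1 fell, with a median of 0.89, and the summed level was 3802 ± 475 CPM in Control and 6755 ± 815 CPM with pTEADi (SD, n = 3 each). The number that rose was 9 in the fit of all 12 libraries of the series. FLG, the keratohyalin protein filaggrin, rose from 10.1, 16.4 and 5.95 CPM to 33.8, 79.7 and 134 CPM (2.93 ± 0.44, adjusted p = 0.000624), with a wide range among the pTEADi libraries and pTEADi 3 highest. LORICRIN, a main envelope protein of epidermis, rose from 0.97, 4.36 and 0.77 to 14.3, 12.2 and 19.2 CPM (2.91 ± 0.44, adjusted p = 0.000692). RPTN, repetin, rose from 1.52, 1.93 and 2.45 to 13.1, 13.4 and 12.5 CPM (2.72 ± 0.20, adjusted p = 1.25e-05), with a narrow range in each group. SPRR3, a proline-rich envelope protein of mucosa, rose from 172, 394 and 247 to 697, 1186 and 995 CPM (1.82 ± 0.26, adjusted p = 0.000479), and the envelope scaffolds PPL (0.88 ± 0.12), EVPL (0.82 ± 0.11) and IVL (0.91 ± 0.14) rose by less. SBSN, suprabasin, had one of the smallest p-values (1.19 ± 0.11, adjusted p = 3.88e-05). CASP14, the protease that processes filaggrin, was the 1 that fell, from 260.4, 247 and 259 to 159.6, 192 and 166 CPM (-0.57 ± 0.09, adjusted p = 0.000917).

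Many of these genes lie together on chromosome 1 in the epidermal differentiation complex, taken here as chr1:151982915-153632039 (GRCh38), from S100A10 to S100A1. Of its 63 protein-coding genes 36 were tested, and 20 rose and 4 fell. The rises ran from RPTN, HRNR (2.22 ± 0.55), FLG, FLG2 (2.93 ± 0.43) and CRNN (2.06 ± 0.35) through the SPRR genes to the S100A8, S100A9 and S100A7 end. S100A7, psoriasin, rose from 227, 222 and 189 CPM to 911, 808 and 906 CPM (2.04 ± 0.10, adjusted p = 1.22e-06), a gain far beyond the spread of either group. The 4 falls were S100A2 (-0.43 ± 0.13), S100A3 (-0.48 ± 0.15), S100A6 (-0.43 ± 0.13) and S100A13 (-0.44 ± 0.15), which lie beyond S100A7 at the far end of the cluster, where S100A16 rose (0.46 ± 0.09). The clade B serpin cluster (chr18:63476958-64019779) had 8 of 9 tested genes rising and 0 falling. The kallikrein cluster (chr19:50819146-51084245) had 5 of 9 rising and 2 falling.

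**Figure D3:**
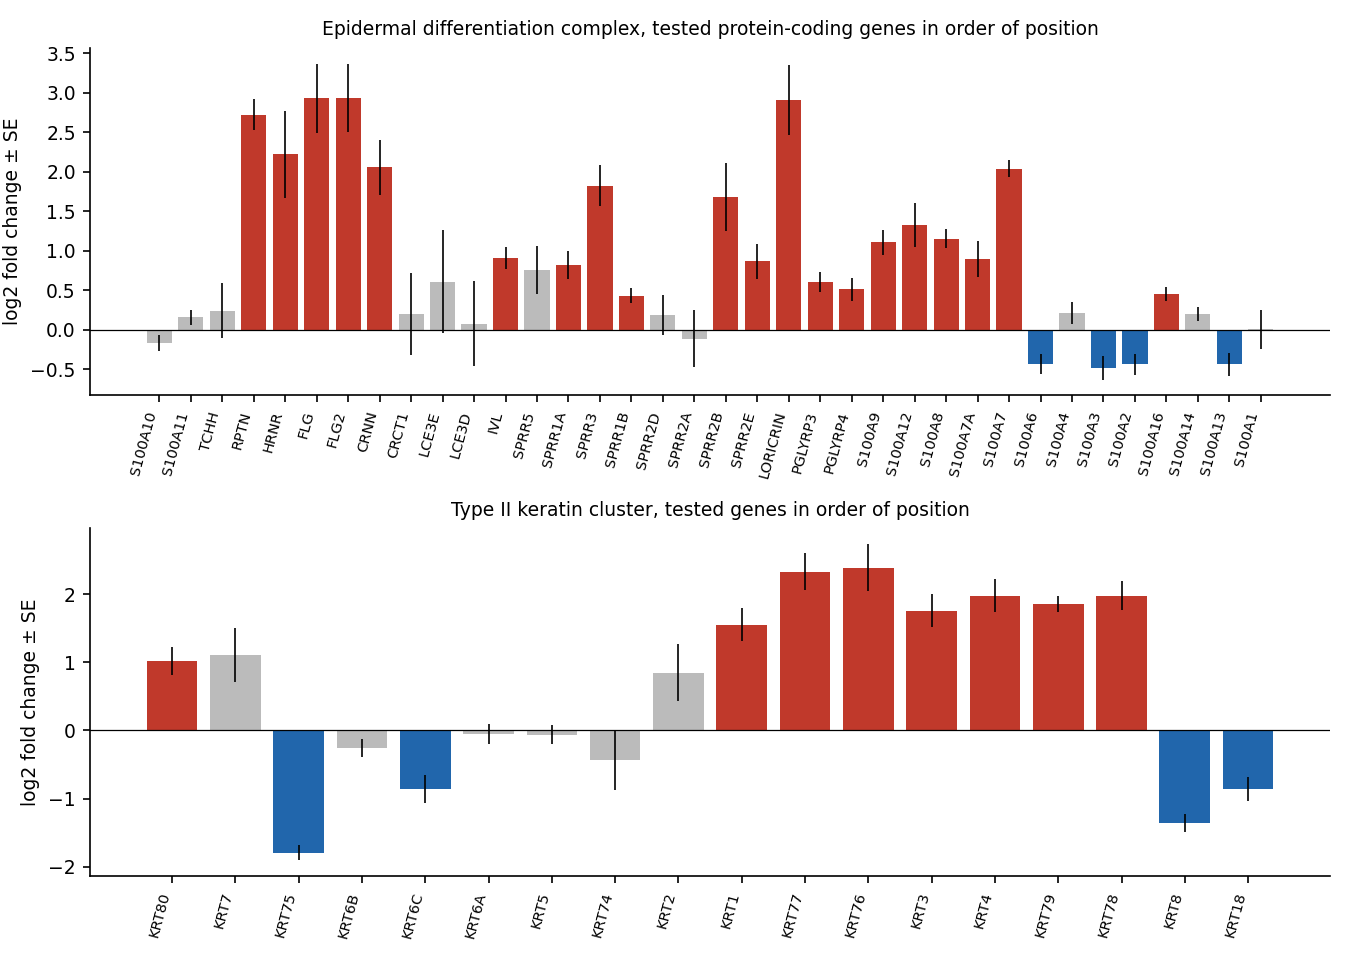
Log2 fold change ± SE, pTEADi over Control, of the tested protein-coding genes of the epidermal differentiation complex (36 genes) and of the type II keratin cluster (18 genes), in order of position. Red genes rose, blue fell and grey did not pass. In the keratin cluster 8 rose, from KRT80 and KRT1 to KRT78, and 4 fell, KRT75, KRT6C, KRT8 and KRT18.

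The promoters of several cornified envelope genes hold the letters of an AP-1 site, TGANTCA, searched on both strands. The windows below, from RefSeq on GRCh38.p14, are shown because these genes rose and share the motif, 5′ to 3′ on the gene's strand with the motif in capitals.
LORICRIN (chr1:153259619-153259665, plus strand): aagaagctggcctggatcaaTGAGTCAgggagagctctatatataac
SPRR3 (chr1:153001559-153001605, plus strand): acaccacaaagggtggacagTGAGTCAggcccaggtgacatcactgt
SPRR1B (chr1:153031042-153031118, plus strand): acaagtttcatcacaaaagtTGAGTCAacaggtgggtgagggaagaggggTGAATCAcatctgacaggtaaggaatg
IVL (chr1:152908403-152908449, plus strand): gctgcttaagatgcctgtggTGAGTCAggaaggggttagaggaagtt
CRNN (chr1:152414330-152414376, minus strand): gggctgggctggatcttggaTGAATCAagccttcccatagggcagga
RPTN (chr1:152159297-152159343, minus strand): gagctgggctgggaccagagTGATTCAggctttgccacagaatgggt
The motif occurred in 7.76% of all promoters, in 4.92% of the matched genes tested, in 7.98% of matched genes that rose, in 5.05% of those that fell and in 15 of 27 promoters of this list. Of the tested list members with a match 10 of 13 rose and 1 fell, and of those without one 5 of 8 rose. A match describes the sequence and is not a measured binding site.

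CES1, a carboxylesterase, rose most among the protein-coding genes at 5 CPM or more, from 0.762, 1.57 and 2.45 CPM to 27.2, 34.4 and 30.4 CPM (4.26 ± 0.26, adjusted p = 3.47e-06). SCGB1A1, a secretoglobin of airway club cells, rose from 14.4, 14.9 and 15.5 to 70.1, 76.6 and 80.6 CPM (2.35 ± 0.10, adjusted p = 3.79e-07), with the smallest standard error of the 20 largest rises. CALML5, a calcium-binding protein of differentiating keratinocytes, rose from 318, 230.3 and 279 to 1369, 1632 and 1300.5 CPM (2.38 ± 0.14, adjusted p = 2.64e-06). Of 23 tested oral mucosa surface genes 15 rose and 1 fell, with a median of 1.16. AQP3, a water and glycerol channel, rose from 536, 456 and 758 to 1421, 1697 and 1477 CPM (1.39 ± 0.16, adjusted p = 0.00015). MUC15 (1.65 ± 0.24), CLCA4 (2.36 ± 0.35), LYPD3 (0.98 ± 0.11) and LY6G6C (1.09 ± 0.14) rose, and GPRC5A was the 1 that fell (-1.09 ± 0.17).

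Of 21 tested kallikreins and epithelial serine proteases 12 rose and 2 fell, and of 20 tested protease inhibitors 15 rose and 0 fell. KLK12 rose from 8.52, 12.4 and 13.7 CPM to 43.8, 69.5 and 60.8 CPM (2.33 ± 0.19, adjusted p = 2.39e-05), and KLK11 (1.56 ± 0.13), KLK7 (0.70 ± 0.10) and the membrane protease genes TMPRSS11A (2.07 ± 0.23) and TMPRSS11B (2.93 ± 0.47) rose with it. KLK5, which starts the activation cascade of skin kallikreins, fell from 155, 149 and 189.5 to 74.9, 86.7 and 86.2 CPM (-0.99 ± 0.11, adjusted p = 9.4e-05), and KLK9 fell as well (-0.76 ± 0.22). SPINK5, the inhibitor of KLK5 and KLK7, rose from 228, 284 and 219 to 581, 766 and 780.4 CPM (1.54 ± 0.14, adjusted p = 3.11e-05). CST6 (1.35 ± 0.12), CSTA (1.13 ± 0.12), SLPI (0.84 ± 0.09) and SERPINB3 (0.70 ± 0.10) rose, and the inhibitors' summed level was 4745 ± 468 CPM in Control and 7169 ± 492 CPM with pTEADi (SD, n = 3 each).

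Of 21 tested genes for the lipids of the epidermal barrier 12 rose and 0 fell, with a median of 0.63. ABCA12, which loads lipid into lamellar granules, rose from 57.7, 40.2 and 69.7 CPM to 131, 163 and 161 CPM (1.44 ± 0.16, adjusted p = 0.000129). DEGS2, an enzyme of phytoceramide synthesis, rose from 2.29, 3.14 and 2.38 to 11.7, 14 and 12.6 CPM (2.29 ± 0.19, adjusted p = 2.37e-05), and ACER1 (2.43 ± 0.20), CYP4F22 (1.85 ± 0.24) and DGAT2 (1.63 ± 0.13) rose too. Of 23 tested desmosome and tight junction genes 8 rose and 2 fell. TJP3, a tight junction scaffold, rose from 7.76, 12.8 and 6.93 to 31.6, 39.3 and 33.3 CPM (1.92 ± 0.20, adjusted p = 6.63e-05), and JUP (0.43 ± 0.10) and PERP (0.46 ± 0.10) rose by less. DSG2 (-0.88 ± 0.08) and PKP2 (-1.05 ± 0.13), desmosome genes also made by simple epithelia and heart, fell. The number of rising junction genes was 3 without pTEADi 2, 5 without pTEADi 1, 5 without pTEADi 3 and 4 without Control 1.

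**Figure D4:**
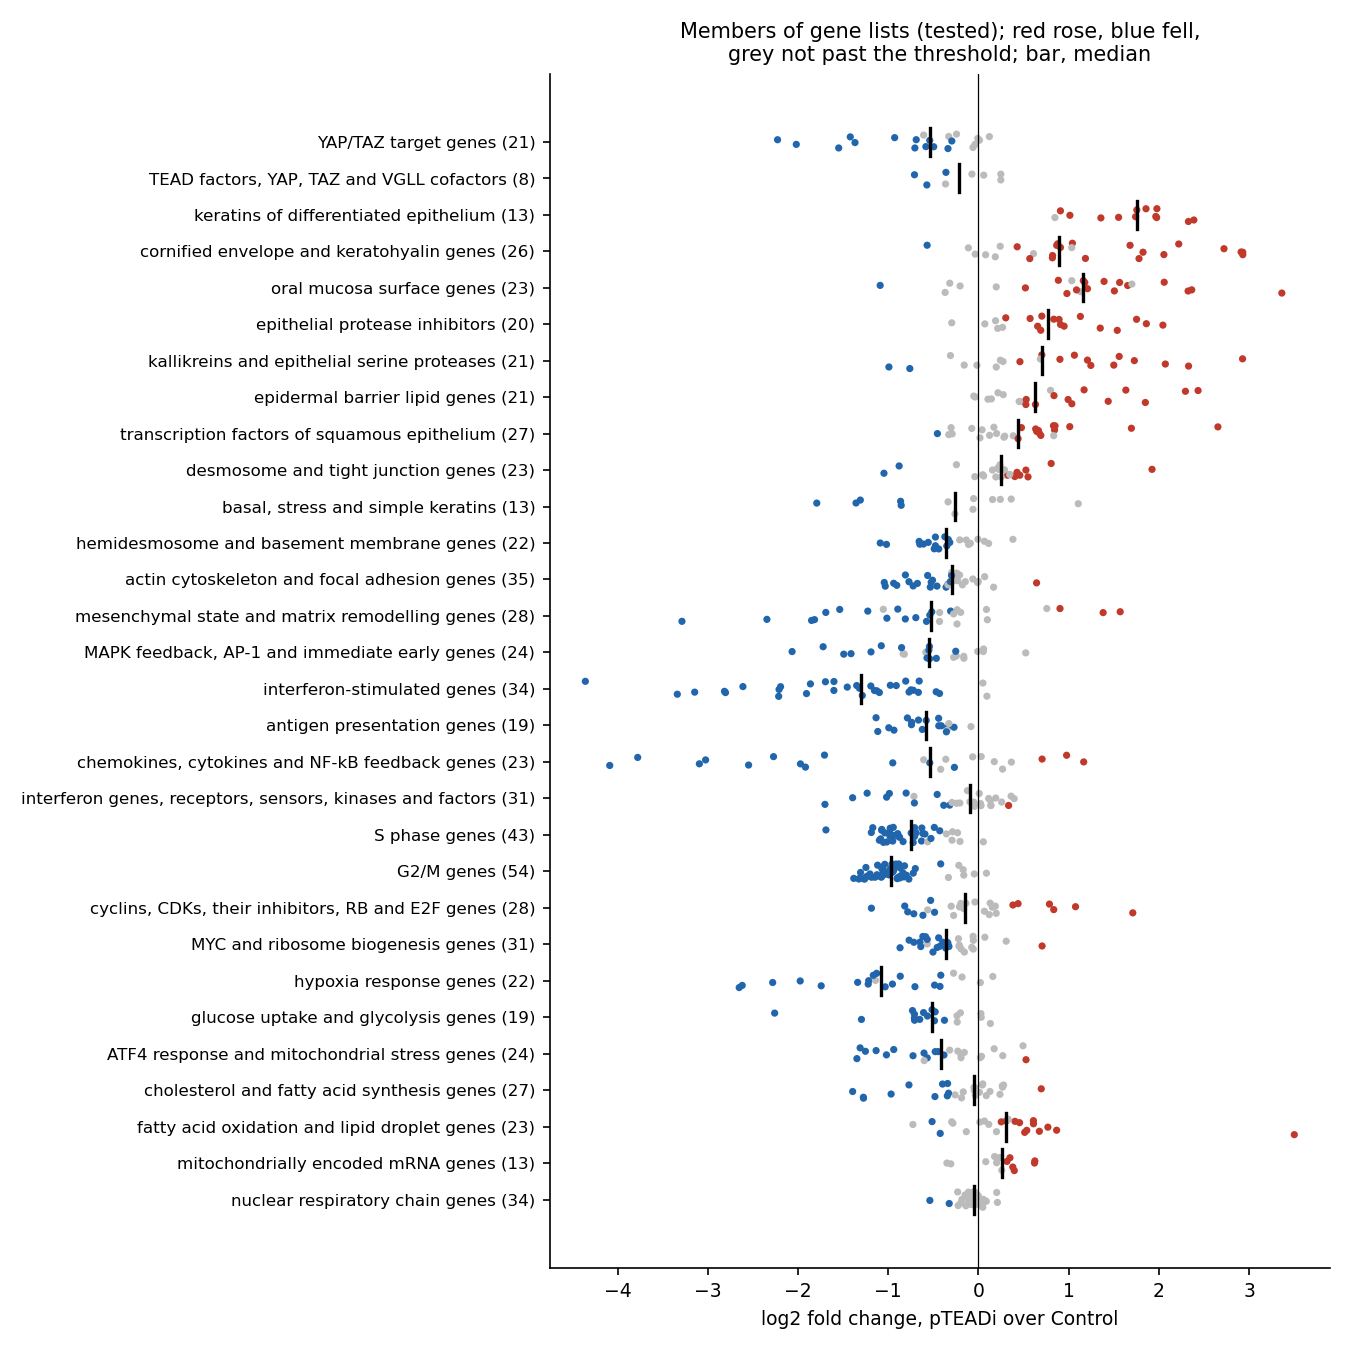
Log2 fold change, pTEADi over Control, of the tested members of 30 gene lists, with the number tested in brackets. Red members rose, blue fell, grey did not pass and the black bar is the list's median, which is highest for the keratins of differentiated epithelium (1.76) and lowest for the interferon-stimulated genes (-1.30).

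Of 22 hemidesmosome and basement membrane genes 14 fell and 0 rose, with a median of -0.36, and the number was 9 without Control 1 and 9 without pTEADi 2. COL4A1, a chain of basement membrane collagen, fell from 111, 121 and 131 CPM to 58.2, 55.5 and 57 CPM (-1.09 ± 0.09, adjusted p = 2.37e-05), and its neighbour COL4A2 fell alike (-1.02 ± 0.10). The laminin chains LAMB1 (-0.61 ± 0.08) and LAMC1 (-0.66 ± 0.10) and the integrin ITGB1 (-0.56 ± 0.11) fell by less. The 8 that did not pass included the hemidesmosome genes COL17A1 (-0.01 ± 0.09), ITGA6 (-0.21 ± 0.09), DST (-0.11 ± 0.09) and PLEC (-0.09 ± 0.11) and the anchoring collagen COL7A1 (0.07 ± 0.10). Of 35 tested actin and focal adhesion genes 17 fell and 1 rose, with PXN, paxillin, falling from 287, 341 and 255 to 170.2, 143 and 157 CPM (-0.91 ± 0.11, adjusted p = 0.000225). ACTN1 (-0.72 ± 0.10), CAV1 (-0.77 ± 0.11) and MYL9 (-0.94 ± 0.13) fell too, and TPM1 was the 1 that rose (0.64 ± 0.15).

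Of 28 tested genes of the mesenchymal state and of matrix remodelling 15 fell and 3 rose. FN1, fibronectin, fell from 16, 41.8 and 41.6 CPM to 4.73, 1.8 and 3.66 CPM (-3.29 ± 0.38, adjusted p = 0.000132), with the lowest Control above the highest pTEADi library by more than 3-fold. ITGA5, the fibronectin receptor's alpha chain, fell from 205, 387 and 138 to 59.5, 40.5 and 43.9 CPM (-2.35 ± 0.30, adjusted p = 0.000264). THBS1, a secreted adhesion protein, fell from 1121, 1352 and 949 CPM to 445, 265 and 349 CPM (-1.69 ± 0.18, adjusted p = 7.69e-05). The collagen cross-linker LOXL2 fell as well (-1.23 ± 0.13). The 3 that rose were all matrix metalloproteinases: MMP10 rose from 23.6, 23.6 and 19.8 to 69.5, 58.2 and 71.4 CPM (1.57 ± 0.11, adjusted p = 1.25e-05), beside MMP13 (1.38 ± 0.18) and MMP1 (0.90 ± 0.14). Of 28 TGF-beta and activin genes 7 fell (25%) and 3 rose (10.7%), among the falls INHBA (-0.99 ± 0.18) and its antagonist FST (-0.98 ± 0.13). That count of falls was 3 without any 1 of the pTEADi libraries, and 4 without Control 1 or in the fit of all 12 libraries.

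Interferon-stimulated genes fell as a group. Of 34 tested 32 fell (94.1%) and 0 rose, with a median of -1.30, and their summed level was 3448 ± 449 CPM in Control and 1272 ± 61.3 CPM with pTEADi (SD, n = 3 each). IFI6, an antiviral membrane protein gene, fell from 216, 229.6 and 186 CPM to 43.7, 48.4 and 45.8 CPM (-2.19 ± 0.10, adjusted p = 5.35e-07). IFIT3, a tetratricopeptide protein that interferon induces, fell from 77.2, 115 and 63.3 to 14.4, 11.4 and 10.8 CPM (-2.80 ± 0.21, adjusted p = 1.25e-05). RSAD2, viperin, fell from 24.7, 54.6 and 13.9 to 1.2, 0.862 and 2.42 CPM (-4.36 ± 0.51, adjusted p = 0.000149), and its Control values differed about 4-fold. Control 3 was the lowest and Control 2 the highest Control for RSAD2, IFIT3 and IFI6, and no pTEADi library reached Control 3. The 2 that did not pass were the neighbouring genes SAMD9 (0.05 ± 0.11) and SAMD9L (0.09 ± 0.11).

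The promoters of many of these genes, and of some antigen presentation genes, hold the interferon-stimulated response element, a site bound by factors that interferon receptors activate, searched on both strands as GAAA, any 2 bases, GAAA. The windows are from RefSeq on GRCh38.p14, 5′ to 3′ on the gene's strand, with the motif in capitals (TTTC, any 2 bases, TTTC where it lies on the other strand). They are shown because IFI6, IFIT3, ISG15, HERC5 and TAP1 fell with the motif present, and SAMD9 had the motif and did not pass.
IFI6 (chr1:27672256-27672368, minus strand): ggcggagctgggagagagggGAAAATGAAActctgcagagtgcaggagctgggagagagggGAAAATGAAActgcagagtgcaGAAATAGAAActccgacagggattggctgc
IFIT3 (chr10:89327821-89327904, plus strand): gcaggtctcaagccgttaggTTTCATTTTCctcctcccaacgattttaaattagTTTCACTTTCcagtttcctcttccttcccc
ISG15 (chr1:1013364-1013419, plus strand): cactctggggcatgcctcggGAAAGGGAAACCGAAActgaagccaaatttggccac
HERC5 (chr4:88456974-88457074, plus strand): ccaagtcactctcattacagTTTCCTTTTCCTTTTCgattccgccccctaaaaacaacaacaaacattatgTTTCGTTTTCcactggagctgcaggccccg
TAP1 (chr6:32853803-32853858, minus strand): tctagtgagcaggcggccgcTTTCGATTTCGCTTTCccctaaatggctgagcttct
SAMD9 (chr7:93118086-93118135, minus strand): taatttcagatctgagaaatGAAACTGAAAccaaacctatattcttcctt
The motif occurred in 3.65% of all promoters, in 2.75% of the matched genes tested, in 1.64% of matched genes that rose, in 4.28% of those that fell and in 20 of 28 promoters of the list. Of list members with a match 19 of 20 fell, with a median of -1.48, and of those without one 7 of 8 fell, with a median of -0.89. ISG15, a ubiquitin-like modifier, was at 309.8, 457 and 226 CPM and 63.8, 48.8 and 50.1 CPM (-2.61 ± 0.22), and HERC5, its ligase, had -2.21 ± 0.32.

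Upstream of these genes the change was narrower: of 31 tested interferon genes, receptors, sensors, kinases and factors 10 fell and 1 rose. RIGI, a cytoplasmic RNA sensor that interferon also induces, fell from 57.1, 64.1 and 52.7 CPM to 15.7, 15 and 22.7 CPM (-1.70 ± 0.15, adjusted p = 3.11e-05). IFIH1 (-0.99 ± 0.12), IRF7 (-1.23 ± 0.17), IRF1 (-1.02 ± 0.16) and IRF9 (-0.46 ± 0.10) fell. The receptor kinase JAK1 rose (0.33 ± 0.11), and the DNA sensor CGAS (-0.29 ± 0.12) and STING1 (-0.24 ± 0.09) did not pass. Of 19 tested antigen presentation genes 16 fell and 0 rose, with a median of -0.58. PSMB9, an immunoproteasome subunit, fell from 44.6, 40.7 and 37.3 to 20.3, 17 and 18.6 CPM (-1.14 ± 0.11, adjusted p = 5.39e-05). HLA-B (-0.99 ± 0.14), HLA-C (-0.74 ± 0.11) and the peptide transporter TAP1 (-0.74 ± 0.10) fell, and HLA genes share reads with near-identical relatives, so their single values are uncertain.

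Of 23 tested chemokines, cytokines and NF-kB feedback genes 12 fell and 3 rose. CXCL1, a neutrophil chemokine, fell from 6.1, 10.5 and 2.45 CPM to 0.3, 0.359 and 0.691 CPM (-3.78 ± 0.55, adjusted p = 0.000545). CCL5, a lymphocyte chemokine, fell from 55.7, 102 and 44.8 to 10.7, 11 and 12.9 CPM (-2.55 ± 0.26, adjusted p = 6.65e-05), and IL1B (-3.02 ± 0.44) and IL1A (-1.97 ± 0.38) fell. IL1RN, the antagonist of the IL-1 receptor, rose from 154, 246 and 147 to 364, 439.7 and 423 CPM (1.17 ± 0.17, adjusted p = 0.000533), as did CXCL14 (0.98 ± 0.23) and TSLP (0.71 ± 0.24). IL7R, the receptor chain for IL-7, had the largest fall at 5 CPM or more, from 21.9, 42.3 and 11.8 to 0.75, 0.79 and 0.898 CPM (-4.94 ± 0.48, adjusted p = 4.7e-05). Of 12 tested immune checkpoint ligands CD276 (-1.39 ± 0.16), PVR (-0.48 ± 0.11) and NT5E, named above, fell, and NECTIN4 rose (0.46 ± 0.13).

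Of 54 G2/M genes 48 fell and 0 rose, with a median of -0.97, and of 43 S phase genes 35 fell and 0 rose, with a median of -0.75. ANLN, the contractile ring protein anillin, fell from 237, 230.5 and 230.4 CPM to 88.9, 83.5 and 95.1 CPM (-1.38 ± 0.08, adjusted p = 3.47e-06), with a narrow range in both groups. From the list of cyclins and CDKs, CCNA2, cyclin A, fell from 47.3, 44.9 and 45.4 to 18.4, 18.7 and 23.3 CPM (-1.19 ± 0.11, adjusted p = 4.31e-05), and MKI67, the Ki-67 antigen, from 229, 213 and 204 to 117, 93.8 and 123 CPM (-0.95 ± 0.11, adjusted p = 0.00012). In bulk tumour RNA, fewer cells of a kind and less RNA in each cell cannot be told apart. CDKN1A, the CDK inhibitor p21, rose from 349.6, 329 and 396 to 691, 650.4 and 575 CPM (0.83 ± 0.10, adjusted p = 0.00022). CDKN2B (0.79 ± 0.17), the antiproliferative genes BTG1 (0.38 ± 0.09) and BTG2 (1.08 ± 0.15) and CCND1, cyclin D1 (0.44 ± 0.09), rose as well. The list of cyclins, CDKs, their inhibitors, RB and E2F genes was mixed, with 6 rises (21.4%) and 7 falls (25%) of 28 tested and a median of -0.15. MYC fell from 133, 171 and 112 to 88.7, 83.4 and 81.3 CPM (-0.72 ± 0.13, adjusted p = 0.00214), and its antagonist MXD4 rose (0.71 ± 0.11). Of 31 MYC and ribosome biogenesis genes 17 fell and 1 rose, with TCOF1 (-0.87 ± 0.10), NPM1 (-0.77 ± 0.11) and NCL (-0.62 ± 0.09) among the falls, and the number of falls was 11 without pTEADi 2.

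Of 22 hypoxia response genes 17 fell and 0 rose, with a median of -1.08, and their summed level was 8956 ± 1690.0 CPM in Control and 4644 ± 142 CPM with pTEADi (SD, n = 3 each). The number that fell was 11 in the fit of all 12 libraries. CA9, a carbonic anhydrase that is a standard hypoxia marker, fell from 90.4, 102 and 65.3 CPM to 15.9, 14.8 and 10.4 CPM (-2.65 ± 0.18, adjusted p = 9.84e-06). ANGPTL4, an inhibitor of lipoprotein lipase, fell from 227, 434 and 83.7 to 43.2, 38.8 and 39.2 CPM (-2.62 ± 0.42, adjusted p = 0.000971). DDIT4, an mTORC1 inhibitor, fell from 928, 1117 and 690.3 to 323, 268 and 227 CPM (-1.74 ± 0.17, adjusted p = 5.27e-05). In the summed level, Control 2 was highest and Control 3 lowest of the Controls, at 9370.2, 10400.0 and 7097 CPM, while the pTEADi libraries were close to each other at 4745, 4706 and 4481 CPM. The collagen hydroxylases P4HA1 (-1.13 ± 0.10) and PLOD2 (-1.34 ± 0.09) and the glycolysis regulator PFKFB3 (-1.22 ± 0.15) fell too.

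Of 19 tested glucose uptake and glycolysis genes 13 fell and 0 rose, and the summed level was 20688 ± 2904 CPM in Control and 14075 ± 407 CPM with pTEADi (SD, n = 3 each). ENO2, an enolase, fell from 49.4, 53.1 and 28.8 CPM to 9.83, 10.2 and 7.39 CPM (-2.26 ± 0.22, adjusted p = 4.55e-05), and LDHA (-0.73 ± 0.12) and GPI (-0.71 ± 0.10) fell by less. TXNIP, an arrestin-like protein that limits glucose uptake, rose from 25.4, 28.4 and 28.3 to 90.7, 94.6 and 83.5 CPM (1.71 ± 0.09, adjusted p = 2.1e-06), among the smallest p-values of all rises. Of 34 nuclear genes of the respiratory chain SDHA (-0.54 ± 0.10) and UQCRC1 (-0.32 ± 0.11) fell and 0 rose, with a median of -0.05. Of 13 mitochondrially encoded mRNAs 6 rose and 0 fell, with a median of 0.26, and the number was 2 without Control 1, 3 without pTEADi 1 and 3 without pTEADi 3.

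**Figure D5:**
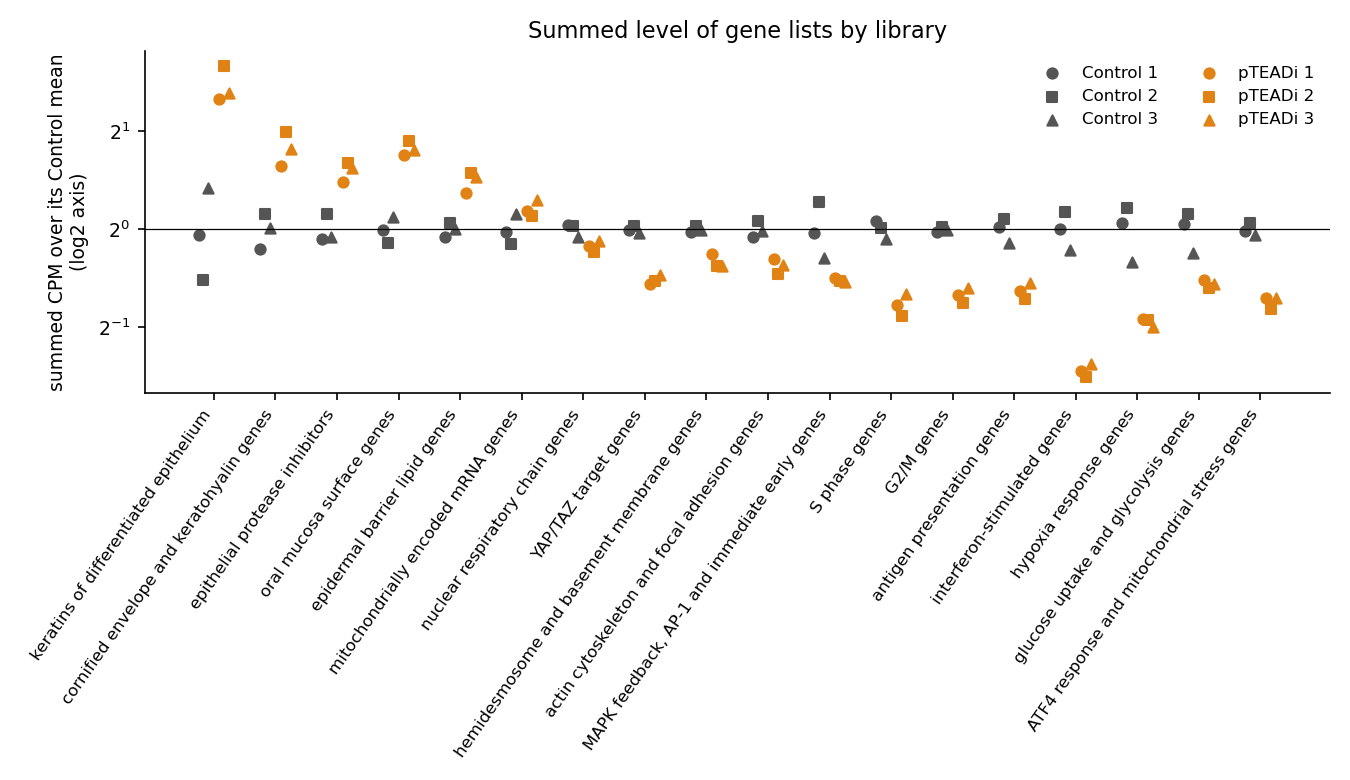
Summed plain CPM, without TMM scaling, of 18 gene lists in each library, divided by the list's Control mean, on a log2 axis. Symbols mark libraries 1 to 3, with grey for Control and orange for pTEADi. The interferon-stimulated genes and the hypoxia response genes lie lowest with pTEADi, and the keratins of differentiated epithelium lie highest.

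Of 24 tested genes of the ATF4 and mitochondrial stress response 12 fell, 1 rose and 11 did not pass. MTHFD2, a mitochondrial folate enzyme, fell from 70.3, 91.1 and 65.8 CPM to 31.1, 26.2 and 32 CPM (-1.35 ± 0.13, adjusted p = 4.99e-05), and TRIB3 (-1.25 ± 0.22) and the chaperone gene HSPD1 (-0.73 ± 0.08) fell. Of 27 cholesterol and fatty acid synthesis genes 10 fell and 1 rose, with INSIG1, which holds back sterol synthesis, falling from 26.7, 34 and 27.1 to 11.9, 10.2 and 14.1 CPM (-1.28 ± 0.15, adjusted p = 0.000136) beside the desaturase FADS1 (-1.27 ± 0.14). The median of that list was -0.05, and its falls numbered 6 without pTEADi 1 and 6 without pTEADi 2. Of 23 tested fatty acid oxidation and lipid droplet genes 12 rose and 2 fell, with 7 rising without pTEADi 2. ACADVL, which starts the oxidation of very long chain fatty acids, rose from 329, 402 and 373 to 582, 592 and 509.5 CPM (0.61 ± 0.10, adjusted p = 0.00124), with no overlap, and the lipid droplet gene PLIN3 rose by less (0.40 ± 0.08).

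Of 24 NRF2 target genes 9 rose and 4 fell, in opposite directions for the aldo-keto reductases AKR1C2 (0.77 ± 0.09) and AKR1B10 (0.90 ± 0.17), which rose, and TXNRD1 (-0.60 ± 0.10) and GCLM (-0.57 ± 0.11), which fell. Metal-handling genes had 7 falls and 2 rises of 12 tested. CP, the ferroxidase ceruloplasmin, fell from 10.7, 11.1 and 7.14 CPM to 0.9, 0.431 and 0.276 CPM (-4.16 ± 0.35, adjusted p = 2.52e-05). The metallothionein MT2A fell from 430.0, 845 and 254 to 171, 123 and 147 CPM (-1.79 ± 0.32, adjusted p = 0.00197), with Control 2 more than 3-fold above Control 3. SLC40A1, the iron exporter ferroportin, rose from 0.485, 0.143 and 0.7 to 2.33, 3.52 and 4.22 CPM (2.89 ± 0.46, adjusted p = 0.000935). The falls in this list numbered 4 without pTEADi 2. Of 19 tested BCL2 family and gasdermin genes 3 rose (15.8%) and 5 fell (26.3%). PMAIP1, the BH3-only protein NOXA, fell from 25.5, 43.8 and 15.5 to 6.08, 5.17 and 3.94 CPM (-2.48 ± 0.33, adjusted p = 0.000296). The 5 falls were 3 without Control 1 and 3 without pTEADi 2. GSDMA, a gasdermin of skin and mucosa, rose from 0.832, 1.71 and 0.77 to 6.15, 9.77 and 14.9 CPM (3.21 ± 0.38, adjusted p = 0.000152).

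Of 1422 long non-coding RNAs tested 117 rose (8.23%) and 63 fell (4.43%), against 13.4% and 15.1% of 12701 protein-coding genes, and the difference was not tested. Over all genes the shares that rose and fell went up with level, from 4.09% and 3.81% under 1 CPM to 18.9% and 18.8% at 100 CPM or more. The gene classes were not matched for level. LINC02593 rose from 4.78, 9.5 and 5.04 CPM to 27.7, 38.6 and 28.2 CPM (2.29 ± 0.23, adjusted p = 6.65e-05). GPC1-AS1 (1.74 ± 0.19) and STXBP5-AS1 (2.09 ± 0.36) rose, and CYTOR (-1.08 ± 0.21), EMSLR (-1.59 ± 0.36) and IRF1-AS1 (-1.24 ± 0.34) fell. Whether counting used strand is not given in the sources used here, so antisense RNAs and their partner genes may share reads.

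Markers of host-type cells were few. Of 12 fibroblast and collagen markers 5 were tested, with 0 rising and COL5A1 (-0.71 ± 0.10) and FAP (-0.92 ± 0.25) falling, while COL3A1, POSTN and THY1 had 0 counts in every library. Of 16 leukocyte markers 7 were tested, with CD74 (-0.59 ± 0.11) and CSF1R (-1.39 ± 0.41) falling and S100A8 and S100A9, which keratinocytes also make, rising. AIF1, LYZ, TYROBP, MS4A1 and NKG7 had 0 counts, and PTPRC, the pan-leukocyte antigen, had 2 counts over the 6 libraries. The endothelial gene VWF rose from 12.6, 13.1 and 21.1 CPM to 30.5, 41.6 and 34.7 CPM (1.19 ± 0.19, adjusted p = 0.000862), 1 of 3 tested in that list. The muscle myosin genes MYH4 and MYH2 had 0 counts in Control 1 and Control 2, while Control 3 and all pTEADi libraries held 15.9 to 18.5 CPM of MYH4. MYH4 did not pass (1.59 ± 0.93). Whether reads of the host animal were separated is not given in the sources used here, and the part of host RNA in these values was not tested.

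The Controls were less alike than the pTEADi libraries on many of the genes that changed. Among genes that rose at 5 CPM or more, the highest Control was Control 3 in 56.4% of 1603, and among genes that fell it was Control 2 in 58.0% of 1792. The median coefficient of variation of the rising genes was 0.111 in Control and 0.0824 with pTEADi, and of the falling genes 0.0914 and 0.0852.

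The effect of pTEADi was set beside that of SW-682 over its Vehicle with each effect taken from the 6 libraries of its own experiment and the difference tested in 1 fit of all 12. The experiments share no library. Across 14384 genes tested in both experiments Pearson's r of the fold changes was 0.68 (Spearman's rho 0.67), as a description over genes, which are not independent. Of 3821 genes that changed with pTEADi and were tested in both, 3621 had the same sign with SW-682, and 2876 had a smaller effect with SW-682. These genes were picked by their pTEADi effect, and the share with the same sign among all 14384 genes was not computed. Of 15460 genes 2 passed the test of the difference of the effects (0.0129%), and 1103 had an unadjusted p under 0.05 (7.13%). With the replicate block, and in 8 of the 12 fits that left out a single library, 0 genes passed. CPT1A, which carries fatty acids into mitochondria, had 0.46 ± 0.13 with pTEADi and -0.88 ± 0.13 with SW-682, a difference of 1.34 ± 0.18 (adjusted p = 0.0451). CEMIP, which breaks down hyaluronan, had 1.34 ± 0.11 with pTEADi and 0.01 ± 0.16 with SW-682, a difference of 1.33 ± 0.19 (adjusted p = 0.0451). SCGB1A1 rose with pTEADi (2.35 ± 0.10) and had -0.51 ± 0.40 with SW-682, but the difference of 2.86 ± 0.47 did not pass (adjusted p = 0.088). The hypoxia genes CA9 (-2.65 ± 0.18 and -0.58 ± 0.38) and DDIT4 (-1.74 ± 0.17 and 0.11 ± 0.31) and the glycolysis gene ENO2 (-2.26 ± 0.22 and 0.03 ± 0.47) are given as pTEADi and SW-682 values, and none of their differences passed. For DDIT4 the difference was -1.85 ± 0.41 (adjusted p = 0.286).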

How the data were processed

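Poly-A selected RNA of the xenograft tumours was sequenced, and the authors used STAR 2.7.9a for alignment to GRCh38 and RSEM 1.3.1 for counting against a Gencode annotation, per the series' design text and the submitters' processing notes. What they deposited are RSEM's expected counts without normalisation, and these were rounded to whole numbers here. Gene names, types and positions came from a Gencode annotation of GRCh38 (60463 of 60649 identifiers matched), and promoter sequences from RefSeq.

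Genes were kept with edgeR's filterByExpr at a minimum count of 10. The 3 pTEADi and 3 Control libraries were scaled by TMM and compared with edgeR 4.0.16's quasi-likelihood test in R 4.3.3, with Benjamini-Hochberg adjustment and a threshold of 0.05. The standard error is the fold change divided by the square root of the F statistic. The test was checked on simulated data, where more of its calls were false than the threshold allows, so calls close to the threshold are the least certain. The common biological coefficient of variation was 0.118. The difference between the pTEADi and SW-682 effects was an interaction contrast over 12 libraries.

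Genes named are, at 5 CPM or more, the 20 largest changes in each direction without overlap, the smallest p-values, and the largest CPM gains and losses. They also include up to 5 genes of each list or cluster by p, members called against their list's majority, the 6 smallest p-values for the difference, and a set of well known genes. A few further list members are named beside a sequence or a neighbour and were picked after their values were seen. The members and lists were chosen with earlier results of these data known. Alternatives were other scalings, filters, DESeq2 1.42.0, a stricter threshold, a replicate block, all 12 libraries in 1 fit, and leaving out each library. Some list members are not reported here.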

Additional observations from a re-analysis of the deposited data

Results flagged for a closer look

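CPT1A and CEMIP were singled out because the effect of pTEADi differed from that of SW-682 in a test of the difference itself (edgeR's quasi-likelihood test over 12 libraries). CPT1A was at 14.3, 18.1 and 14.6 CPM in the Controls and 20, 21.6 and 22.8 CPM with pTEADi, on the scale of the pTEADi experiment. In the fit of all 12 libraries it was at 26.1, 23.9 and 26.6 CPM in the Vehicle libraries and 14, 12.2 and 15.4 CPM with SW-682, and the difference of the effects was 1.34 ± 0.18 on the log2 scale (adjusted p = 0.0451). CEMIP was at 12.7, 15.1 and 14.4 CPM in the Controls and 33.8, 35.8 and 37.5 CPM with pTEADi. In the fit of all 12 libraries it was at 12.7, 15.2 and 14.7 CPM in the Vehicle libraries and 17.2, 13.4 and 12.4 CPM with SW-682, and the difference was 1.33 ± 0.19 (adjusted p = 0.0451). In 8 of the 12 fits that left out a single library 0 genes passed the threshold, with 989 at an unadjusted p under 0.05 without Control 1, and DESeq2 on all 12 called 43.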

How the results depend on the processing

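The 3864 changed genes became 2138 at an adjusted p threshold of 0.01. Leaving out 1 library gave between 2325 genes (without pTEADi 2) and 4379 (without Control 3). With other scalings, other low-count filters, DESeq2 or all 12 libraries in 1 fit the count lay between 3372 and 4359, within 1.5 times. All 3864 genes kept their sign under each of these alternatives, and between 2293 and 3859 of them were still past the threshold. Of the 317 named genes 0 changed sign in 4120 values under these alternatives, and the setting in which most lost their call was without pTEADi 2, with 32.

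No shared variation was seen between same-numbered libraries, whose deviations from their group means correlated at -0.068 to -0.0069. Differently numbered libraries had -0.043 to 0.075. With 3 libraries a group, this check cannot show whether equal numbers share an animal or a day. With the replicate block 3707 genes changed. For the difference of the effects, 2 genes passed, 377 without a low-count filter, 43 with DESeq2 and 0 with the replicate block (917 at an unadjusted p under 0.05). Leaving out 1 library gave between 0 and 20, the last without SW-682 library 3 (smTEADi 3), so the number of differing genes depends on the tool, the filter and single libraries. The cause was not tested. List counts of 1 to 3 genes moved by up to 3 when 1 library was left out. Below 1 CPM, where the median standard error was 0.49, 30 of 734 genes rose and 28 fell.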

Other observations

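Some genes in no list changed strongly, and those named here were picked after their values were seen. SCEL, sciellin of the cornified envelope, rose from 101, 128 and 112 CPM to 251, 326 and 357 CPM (1.45 ± 0.13, adjusted p = 3.88e-05). ABCA1, the cholesterol exporter, rose from 9.01, 8.64 and 9.79 to 20.5, 26.1 and 27.8 CPM (1.44 ± 0.14, adjusted p = 5.9e-05). HPGD, which breaks down prostaglandins, rose from 8.94, 16.1 and 10.8 to 25.2, 39.7 and 41.1 CPM (1.57 ± 0.22, adjusted p = 0.000451), and the sodium channel subunit SCNN1A rose from 29.4, 40.1 and 32.3 to 84.9, 113 and 102 CPM (1.56 ± 0.13). The retinaldehyde dehydrogenase ALDH1A1 (1.68 ± 0.20), the pioneer factor FOXA1 (1.53 ± 0.17) and SOX21 (1.65 ± 0.20) rose as well.

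Among the falls, DKK1, a secreted Wnt inhibitor, went from 13.6, 19.6 and 14.8 CPM to 5.85, 4.17 and 5.87 CPM (-1.59 ± 0.19, adjusted p = 0.000184). VEGFC, a growth factor for lymphatic vessels, fell from 26.8, 43.3 and 23.9 to 11.2, 10.5 and 11.7 CPM (-1.49 ± 0.20, adjusted p = 0.000334). PODXL (-2.22 ± 0.21), the laminin chain LAMA1 (-2.22 ± 0.24), the ETS factor ETS1 (-1.26 ± 0.20) and the galectin LGALS1 (-1.14 ± 0.16) fell too. The tryptophan tRNA ligase gene WARS1 (-1.47 ± 0.18), the DNA sensor AIM2 (-1.29 ± 0.21) and APOL1 (-1.38 ± 0.14), all of which interferon-gamma induces, also fell.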
